A study of Saccharomyces cerevisiae with 6 samples.

Results

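Trehalose and glycogen are the reserve carbohydrates of budding yeast, and the 10 genes described here encode the main enzymes that build them up and break them down: TPS1, TPS2, TPS3, TSL1, NTH1, GSY1, GSY2, GLC3, GPH1 and GDB1. They were taken by name, as every probe set listed under one of these symbols. Each of the 10 genes has 1 probe set on the array, none is shared with another listed gene, and all 10 were among the 5380 genes tested. The signal of each was compared between 3 arrays of cells carrying histone H3 K4,79R, in which lysines 4 and 79 of H3 are replaced by arginine, and 3 arrays of the wild-type strain. Set1 normally methylates the first of these lysines and Dot1 the other, and neither enzyme can modify arginine. Cells of both groups were collected in mid-logarithmic growth in YPD, a rich medium with glucose. Strain background, ploidy and whether replicate samples are separate cultures are not stated in the labels. The p-values therefore cover the variation between these 6 samples alone, which could be technical, and the number of arrays limits the precision. Array signals of whole cultures do not tell a change in every cell from a change in some cells.

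Both reserves start from glucose-6-phosphate and UDP-glucose. Trehalose is made by a complex of Tps1, which joins the sugars, Tps2, which removes the phosphate, and the regulatory subunits Tps3 and Tsl1, and it is split by the neutral trehalase Nth1. Glycogen chains are extended by the synthases Gsy1 and Gsy2 and branched by Glc3, and they are taken apart by the phosphorylase Gph1 and the debranching enzyme Gdb1. These genes are known for low expression during fast growth on glucose and for induction by stress and as glucose runs out, through the stress factors Msn2 and Msn4, whose activity the cAMP-dependent kinase holds down.

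None of the 10 genes passed the test for a difference between K4,79R and wild-type cells (limma, Benjamini-Hochberg adjusted p under 0.05 over all tested genes), where 4.26% of all 5380 tested genes did. At an unadjusted p under 0.05 the count was 3 of 10, TPS1, GSY1 and GDB1, each higher in the mutant, beside 22.2% of all genes. As deposited, the same 3 genes had all K4,79R signals above all wild-type signals. That separation was seen upwards for 16.7% of all genes and downwards for 12.2% (28.8% in all). The log2 change was above 0 for 7 of the 10, beside 54.9% of all genes. The median log2 change of the 10 genes was 0.14, beside 0.04 for all tested genes. No member's 95% confidence interval reached a 2-fold change: the highest upper bound was 1.84-fold, for GDB1, and the lowest lower bound 0.681-fold, for GPH1. These changes are on the log2(signal + offset) scale, with an offset of 3.605.

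**Figure D1:**
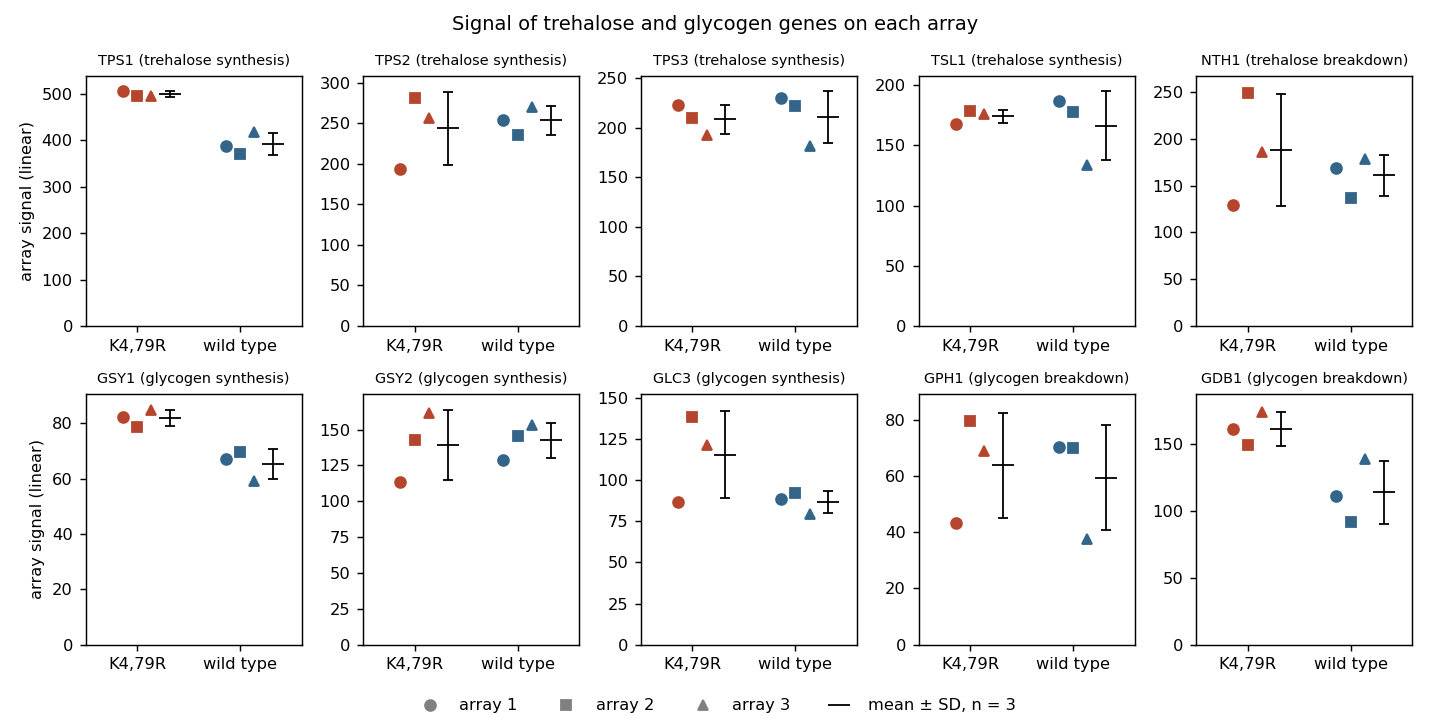
Signal of each of the 10 genes on a linear scale starting at 0, K4,79R arrays (red) left of wild-type arrays (blue). Symbols mark array numbers and bars the mean ± SD of 3 arrays; TPS1, GSY1 and GDB1 are the genes whose groups do not overlap.

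Mutant array 1 stood apart from the other arrays, and the counts of genes called are given with and without it. The correlation of mutant array 1 with mutant arrays 2 and 3 was 0.966 and 0.974, against 0.987 between those arrays and 0.983 to 0.992 among wild-type arrays. All these correlations are across the probe sets that passed the signal filter. Signal from the 3′ end of ACT1 over that from its 5′ end gauges whether transcripts are whole. It came to 1.00 on mutant array 1, beside 1.50 and 1.55 on the other mutant arrays and 1.58 to 1.64 on wild-type arrays. For SPT15 it was 5.71 on mutant array 1, 2.79 and 3.35 on the other mutant arrays, and 5.02 to 6.15 on wild-type arrays. The part of these differences in the results was not tested. Over all genes 229 were called, 1123 without mutant array 1, 51 and 47 without mutant array 2 or 3, and 22, 23 and 65 without wild-type array 1, 2 or 3.

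Of the trehalose synthesis genes, TPS1 (YBR126C), the synthase itself, had the smallest standard error of the 10 genes in the values as deposited. Its signal was 507, 495 and 495 on K4,79R arrays 1, 2 and 3, against 389, 371 and 418 on the wild-type arrays. As deposited, the groups did not overlap and the 3 mutant signals lay close together. Only 0.837% of tested genes had a lower SD between mutant arrays on the log2 scale. The median signal of these arrays was 31.8, 42.9 and 40.1, so the TPS1 signals were not as close relative to it. The mean was 499 ± 6.56 in K4,79R cells and 393 ± 23.5 in wild-type cells (SD, n = 3), a log2 change of 0.35 ± 0.10 (SE), or 1.27-fold with a 95% interval of 1.09 to 1.48. It missed the threshold (limma adjusted p = 0.0904), at rank 442 by p-value among the 5380 genes. Leaving out any 1 array gave changes between 0.31 and 0.39, and a common median gave 0.24 ± 0.17 (SE; limma adjusted p = 0.404).

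The other subunits of the trehalose complex lay on both sides of zero. TPS2 (YDR074W), the phosphatase, read 194, 282 and 256 on K4,79R arrays, against 255, 236 and 270 on wild-type arrays. The lowest and the highest of these 6 signals were both from mutant arrays, and the log2 change was -0.07 ± 0.15 (SE; limma adjusted p = 0.826). TPS3 (YMR261C), a regulatory subunit, read 223, 210 and 193 on K4,79R arrays, against 231, 222 and 181 on wild-type arrays. Its mutant values all lay within the wild-type range, with a log2 change of -0.01 ± 0.13 (limma adjusted p = 0.961). TSL1 (YML100W), the other regulatory subunit, read 168, 178 and 176 on K4,79R arrays, against 187, 178 and 134 on wild-type arrays. These groups overlapped as well, at a log2 change of 0.08 ± 0.14 (limma adjusted p = 0.788). The 95% intervals of the 3 genes together ran from 0.750-fold to 1.33-fold.

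NTH1 (YDR001C), the neutral trehalase gene, had the widest spread of the 10 genes between mutant arrays. It read 129, 248 and 186 on K4,79R arrays, against 169, 137 and 179 on wild-type arrays. Mutant array 1 was below all wild-type arrays and the other 2 mutant arrays were above them. The log2 change was 0.17 ± 0.23 (SE; limma adjusted p = 0.690). Leaving out mutant array 1 gave 0.41 ± 0.16 (adjusted p = 0.0972).

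Among the glycogen synthesis genes, signals of the synthase isoform GSY1 were apart between the groups and those of GSY2 overlapped. GSY1 (YFR015C) read 82.2, 78.9 and 84.8 on K4,79R arrays, against 67.0, 69.8 and 59.3 on wild-type arrays. As deposited, all mutant signals were above all wild-type signals. The GSY1 log2 change was 0.31 ± 0.13 (SE), or 1.24-fold with a 95% interval of 1.02 to 1.52, and was not called (limma adjusted p = 0.196). With a common median it was 0.22 ± 0.16 (SE; limma adjusted p = 0.440). GSY2 (YLR258W), known as the main synthase, read 113, 143 and 162 on K4,79R arrays, against 129, 145 and 153 on wild-type arrays. Here the mutant arrays held both the lowest and the highest signal, and the log2 change was -0.04 ± 0.15 (limma adjusted p = 0.896).

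GLC3 (YEL011W), the branching enzyme gene, was higher on 2 of the 3 mutant arrays. It read 86.8, 139 and 122 on K4,79R arrays, against 89.0, 92.5 and 79.7 on wild-type arrays. Mutant arrays 2 and 3 were above every wild-type array, while mutant array 1 lay within the wild-type range. The log2 change was 0.37 ± 0.18 (SE), or 1.30-fold, and was not called (limma adjusted p = 0.265). Leaving out mutant array 1 gave 0.56 ± 0.11, which passed (adjusted p = 0.0155).

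Of the glycogen breakdown genes, GDB1 (YPR184W), the debranching enzyme gene, had the highest change of the 10. It read 161, 149 and 174 on K4,79R arrays, against 112, 91.6 and 139 on wild-type arrays. As deposited, all mutant signals were above all wild-type signals, with means of 162 ± 12.5 in K4,79R cells and 114 ± 23.7 in wild-type cells (SD, n = 3). The log2 change was 0.51 ± 0.16 (SE), or 1.42-fold with a 95% interval of 1.10 to 1.84, and was not called (limma adjusted p = 0.119). Among all tested genes, 91.5% had a lower change. With a common median GDB1 stood at 0.41 ± 0.19 (SE; limma adjusted p = 0.208). GPH1 (YPR160W), the phosphorylase gene, read 43.2, 79.5 and 68.9 on K4,79R arrays, against 70.4, 69.8 and 37.7 on wild-type arrays. Mutant array 1 and wild-type array 3 were each well below the rest of their group, and the spread between wild-type arrays exceeded that of 96.9% of tested genes. The log2 change was 0.11 ± 0.29 (limma adjusted p = 0.857).

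**Figure D2:**
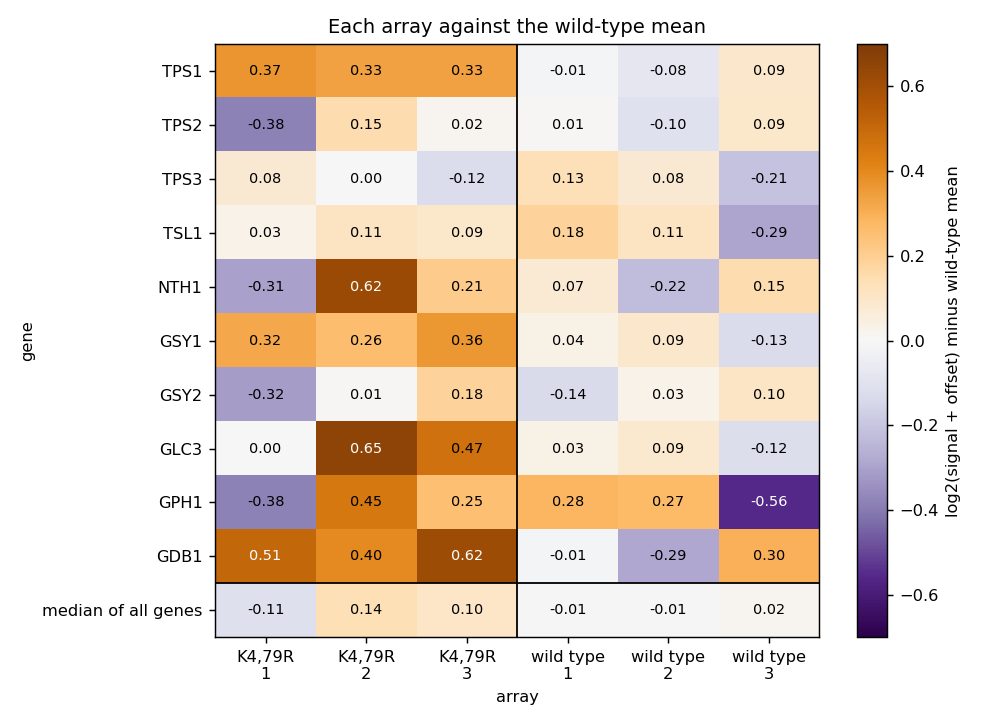
Colour and number give log2(signal + offset) minus the wild-type mean for each gene (rows) on each array (columns), K4,79R arrays left of wild-type arrays; the bottom row is the median of all tested genes. Mutant array 1 holds the lowest mutant value for 6 of the 10 genes, while TPS1, GSY1 and GDB1 are above 0.25 on all mutant arrays.

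The 10 genes did not move as a block from array to array. On mutant array 1, 5 of the 10 were above the wild-type mean, and their median deviation was 0.01 on the log2 scale, beside -0.11 for all genes. On mutant arrays 2 and 3, 9 of the 10 were above it, with medians of 0.30 and 0.23, beside 0.14 and 0.10 for all genes. The median of the 10 was thus above the median of all genes by 0.12, 0.16 and 0.13 on mutant arrays 1, 2 and 3, and by 0.04, 0.06 and -0.03 on wild-type arrays 1, 2 and 3. Each gene was centred on its own wild-type mean, so the wild-type arrays are no separate baseline for these values. The genes low on mutant array 1 were TPS2, NTH1, GSY2 and GPH1, with deviations between -0.31 and -0.38, whereas TPS1, GSY1 and GDB1 stood at 0.37, 0.32 and 0.51 there. On wild-type array 3, GPH1, TSL1 and TPS3 were low, at -0.56, -0.29 and -0.21, and GDB1 was high, at 0.30.

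Without mutant array 1, TPS1 (log2 0.33, limma adjusted p = 0.0418) and GLC3 rose and none of the 10 fell, in a fit that called 20.9% of all genes. TPS2 then stood at 0.08, GSY2 at 0.10 and GPH1 at 0.35, none of them called. In that fit the median change was 0.32 for the 10 genes and 0.11 for all genes. When the arrays were also set to a common median, an alternative chosen after seeing the data, none of the 10 was called, with GLC3 at 0.34 (limma adjusted p = 0.0715) and TPS1 at 0.11 (adjusted p = 0.599). GSY1 and GDB1 then stood at 0.09 and 0.28 (adjusted p = 0.644 and 0.260). Of all genes 20.3% were called there, 6.71% higher and 13.6% lower. In that fit 2 of the 10 had an unadjusted p under 0.05, GLC3 higher and TPS3 lower (log2 -0.29, adjusted p = 0.127), beside 36.2% of all genes. There 1 of the 10, GLC3, had all K4,79R signals above all wild-type signals, beside 18.8% of all genes. TPS1, GSY1 and GDB1 no longer did. For 2 trehalose synthesis genes all K4,79R signals lay below all wild-type signals. The share of all genes apart in that direction is not given for this fit, where 13.6% were called lower. The count of 2 therefore says nothing about these genes in particular. With all 6 arrays, 7 of the 10 changes were positive as deposited, with quantile normalization and with a common trimmed mean, and 6 with a common median, where TSL1 turned to -0.02.

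**Figure D3:**
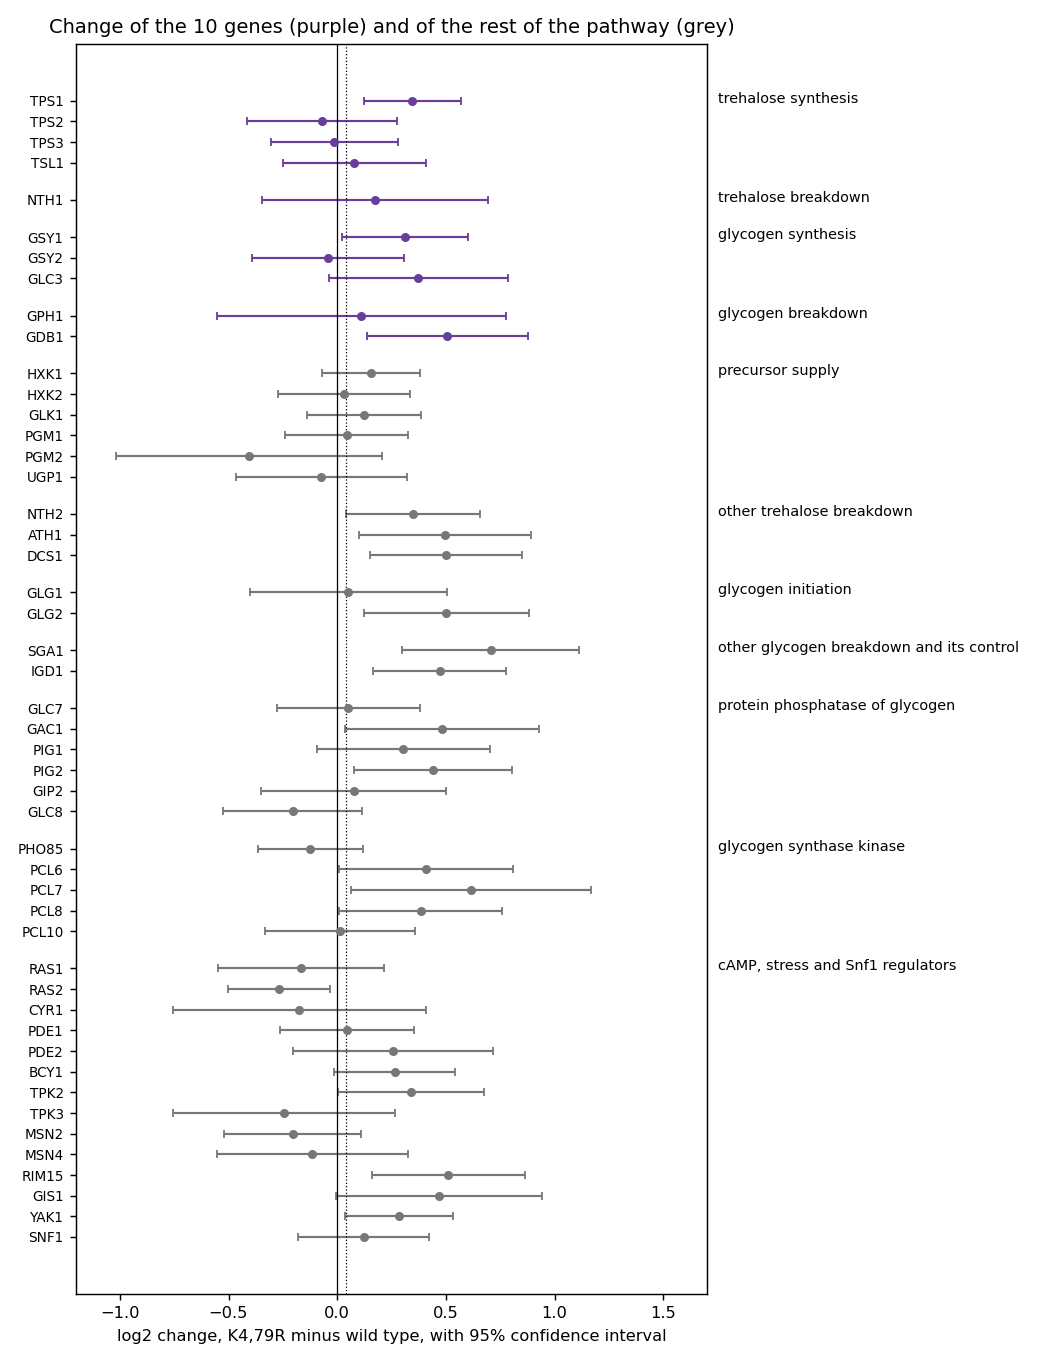
Points are log2 changes, K4,79R minus wild type, with 95% confidence intervals, for the 10 genes (purple) and 38 further pathway genes (grey), grouped by role; the dotted line is the median of all tested genes, 0.04. No gene shown passed the test, and the intervals of TPS1, GSY1 and GDB1 lie above 0 before adjustment.

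The rest of the pathway was read from 38 further tested genes. None of the 38 was called, beside 4.26% of all genes, with a median log2 change of 0.14 and a range of -0.41 to 0.71. At an unadjusted p under 0.05, 14 were higher and 1 lower (RAS2), beside 13.8% and 8.44% of all genes. Without mutant array 1 the count called was 10 higher and none lower, where 16.0% and 4.83% of all genes were. With a common median as well it was 1 higher and 1 lower, where 6.71% and 13.6% of all genes were.

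Outside the 10, all 3 genes listed for trehalose breakdown and its control and both listed for glycogen breakdown and its control had K4,79R signals above all wild-type signals, beside 16.7% of all genes. Without mutant array 1 at a common median this held for 2 of the 3 and 1 of the 2, beside 18.8% of all genes. The lists hold enzymes and also inhibitors of breakdown. DCS1, which encodes a hydrolase of mRNA decapping also known as an inhibitor of neutral trehalase, read 112, 142 and 165 on K4,79R arrays, against 93.0, 98.8 and 97.7 on wild-type arrays. Its log2 change was 0.50 ± 0.15 (SE; limma adjusted p = 0.105). ATH1, the acid trehalase gene, stood at 0.50 ± 0.17 (limma adjusted p = 0.147), and NTH2, the second neutral trehalase gene, at 0.35 ± 0.13 (adjusted p = 0.179). IGD1, known as an inhibitor of Gdb1, read 65.2, 64.9 and 65.3 on K4,79R arrays, against 49.0, 41.0 and 48.2 on wild-type arrays. Its mutant signals as deposited were nearly equal, and its log2 change was 0.47 ± 0.13 (limma adjusted p = 0.0902). A common median gave 0.38 ± 0.16 (limma adjusted p = 0.178).

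SGA1, a glucoamylase known for breaking down glycogen in sporulation, was read by 2 probe sets that disagree in size. The brighter read 108, 74.1 and 82.0 on K4,79R arrays, against 46.0, 50.4 and 60.1 on wild-type arrays, a log2 change of 0.71 ± 0.18 (SE; limma adjusted p = 0.0678). The dimmer, whose name marks probes that may be shared, read 20.8, 19.6 and 22.8 on K4,79R arrays, against 8.7, 6.3 and 6.0 on wild-type arrays. In a fit over all 7420 probe sets the dimmer was called, at 1.23 ± 0.16 (limma adjusted p = 0.0131), while the brighter was not (adjusted p = 0.0801). Taking the mean of a gene's probe sets, SGA1 rose by 0.97 (limma adjusted p = 0.0152).

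No gene of the other roles was called. Of 6 precursor supply genes, PGM2, the main phosphoglucomutase gene, stood at -0.41 ± 0.27 (SE; limma adjusted p = 0.414), with 51.4, 117 and 83.9 on K4,79R arrays, against 116, 91.4 and 115 on wild-type arrays. Mutant array 1 was the lowest of the 6, and without it the change was -0.10, while leaving out mutant array 2 gave -0.67. The hexokinase gene HXK1 stood at 0.15 ± 0.10 (limma adjusted p = 0.392). Of the glycogenin genes, which prime glycogen chains, GLG2 stood at 0.50 ± 0.16 (adjusted p = 0.129) and GLG1 at 0.05 ± 0.20 (adjusted p = 0.904), or at 0.24 without mutant array 1. Among 6 genes of the phosphatase that activates glycogen synthase, its targeting subunit genes GAC1 and PIG2 had the largest changes by the brightest probe set. They stood at 0.48 ± 0.19 (adjusted p = 0.197) and 0.44 ± 0.16 (adjusted p = 0.156), both at low signals between 4.10 and 15.4. For GLC7, the phosphatase gene itself, the brightest probe set gave 0.05. A dimmer one gave 0.52 ± 0.23 in the fit over all probe sets (limma adjusted p = 0.237).

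Among 5 genes of the cyclin-dependent kinase that acts on glycogen synthase, the cyclin genes PCL7 and PCL6 had the largest changes. PCL7 read 51.7, 69.3 and 62.6 on K4,79R arrays, against 49.5, 44.4 and 25.5 on wild-type arrays, a log2 change of 0.62 ± 0.24 (SE; limma adjusted p = 0.187). Without wild-type array 3, its lowest, PCL7 stood at 0.35. PCL6 stood at 0.41 ± 0.17 (limma adjusted p = 0.219). Of 14 tested genes of the cAMP, stress and Snf1 pathways, RIM15, a kinase gene needed for entry into stationary phase, stood at 0.51 ± 0.15 (limma adjusted p = 0.103). The transcription factor gene GIS1 stood at 0.47 ± 0.21 (adjusted p = 0.231). Probe sets disagreed for CYR1, at -0.18 by the brightest and 0.57, 0.50 and -0.09 by dimmer ones. All but the one at 0.57 have names that mark probes that may be shared. For YAK1 they gave 0.28 by the brightest, whose name also marks such probes. Dimmer ones, whose names do not, gave 0.61 and 0.39. MSN2 and MSN4 themselves stood at -0.20 ± 0.14 and -0.11 ± 0.19 (limma adjusted p = 0.422 and 0.768). Without mutant array 1 they were -0.09 and 0.06, and at a common median as well -0.31 and -0.15.

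Pairs of related genes were compared within each array, where a common factor on the array falls out apart from the offset. The log2 difference between GSY2 and GSY1 was 0.45, 0.83 and 0.90 on K4,79R arrays, against 0.91, 1.02 and 1.32 on wild-type arrays. All mutant values were below all wild-type values, by 0.36 in the means, and the two-sided exact permutation test gave p = 0.1, the smallest that 3 against 3 arrays allow (Benjamini-Hochberg adjusted p = 0.5 over 5 pairs). In the other pairs the groups overlapped: the mutant minus wild-type difference was 0.09 for TSL1 over TPS3 (exact permutation p = 0.4), 0.18 for NTH2 over NTH1 (p = 0.6), -0.45 for PGM2 over PGM1 (p = 0.4) and 0.45 for GLG2 over GLG1 (p = 0.2). These 4 differences were 0.17, -0.02, -0.05 and 0.26 without mutant array 1, and that for GSY2 over GSY1 was -0.22. The size of a within-array difference does not rank the genes' levels, since probe sets differ in brightness. With 3 arrays a group no pair could have passed at 0.05.

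**Figure D4:**
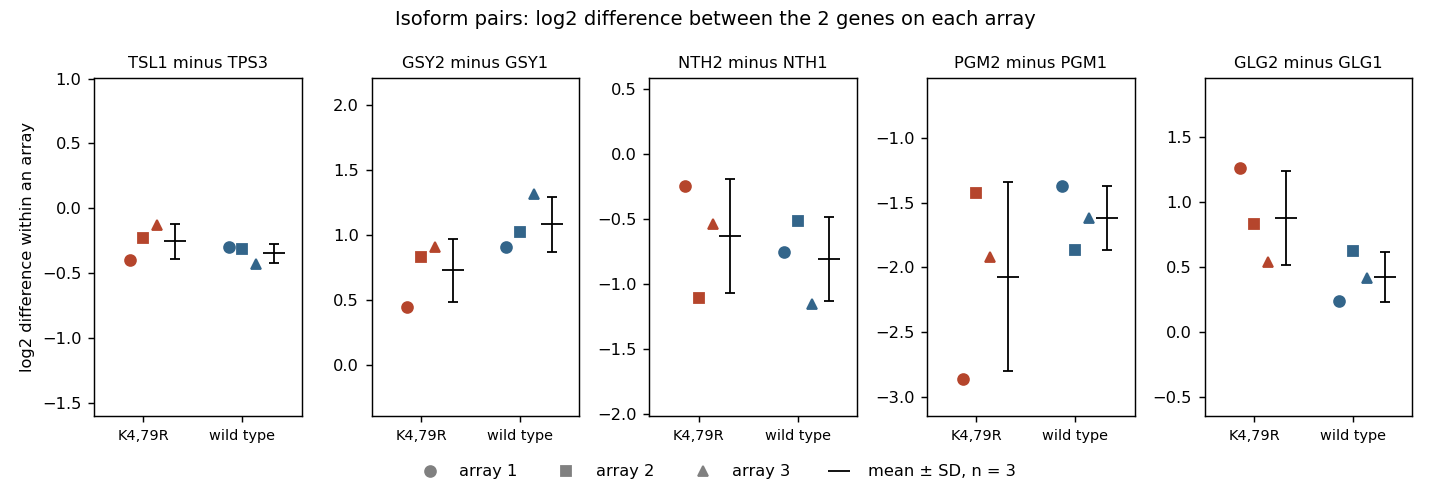
Log2 difference between the genes of each pair within an array, K4,79R arrays (red) left of wild-type arrays (blue), with symbols for array numbers and bars for the mean ± SD of 3 arrays; each panel spans the same height. The groups are apart only for GSY2 minus GSY1, where mutant values run from 0.45 to 0.90 and wild-type values from 0.91 to 1.32.

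Genes that mark the approach of glucose exhaustion were set beside the 10. Of 11 tested genes known to rise when glucose runs out, 7 rose and none fell, beside 2.81% and 1.45% of all genes: HSP12, SPG4, GRE1, HXT5, ADH2, MLS1 and FBP1, at log2 changes of 1.32, 1.36, 1.30, 1.05, 0.99, 0.90 and 0.72 (limma adjusted p between 0.00218 and 0.0375). ICL1, PCK1, JEN1 and CTT1 were not called, at 0.53, 0.71, 0.47 and 0.68. The median change of the 11 was 0.90, beside 0.14 for the 10 trehalose and glycogen genes, and all 11 changes were at or above 0.47 while 9 of the 10 lay below it. The summed signal of the 11 was 1982, 1937 and 1858 on K4,79R arrays, against 809, 786 and 935 on wild-type arrays, and none was at 0. Most of each sum was HSP12, at 1256, 1182 and 1178 on K4,79R arrays, against 478, 440 and 525 on wild-type arrays. Of 3 genes high on glucose, the transporter gene HXT1 fell by 0.78. HXT3, another glucose transporter gene, stood at 0.31 with all K4,79R signals above all wild-type signals (limma adjusted p = 0.161), and the hexokinase gene HXK2 at 0.03 (adjusted p = 0.907, and -0.07 with a common median). Earlier results of these data had shown several of these genes as raised, so their count is not independent. The count called among the 14 tested markers of both kinds was 8 with all arrays, 1 without wild-type array 1 or 2, and 4 without wild-type array 3. It was 10 without mutant array 1, and 5 and 4 without mutant array 2 or 3. In the same order, these fits called 4.26%, 0.409%, 0.427%, 1.21%, 20.9%, 0.948% and 0.874% of all genes. Whether the growth stage of the cultures had a part in any value was not tested.

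**Figure D5:**
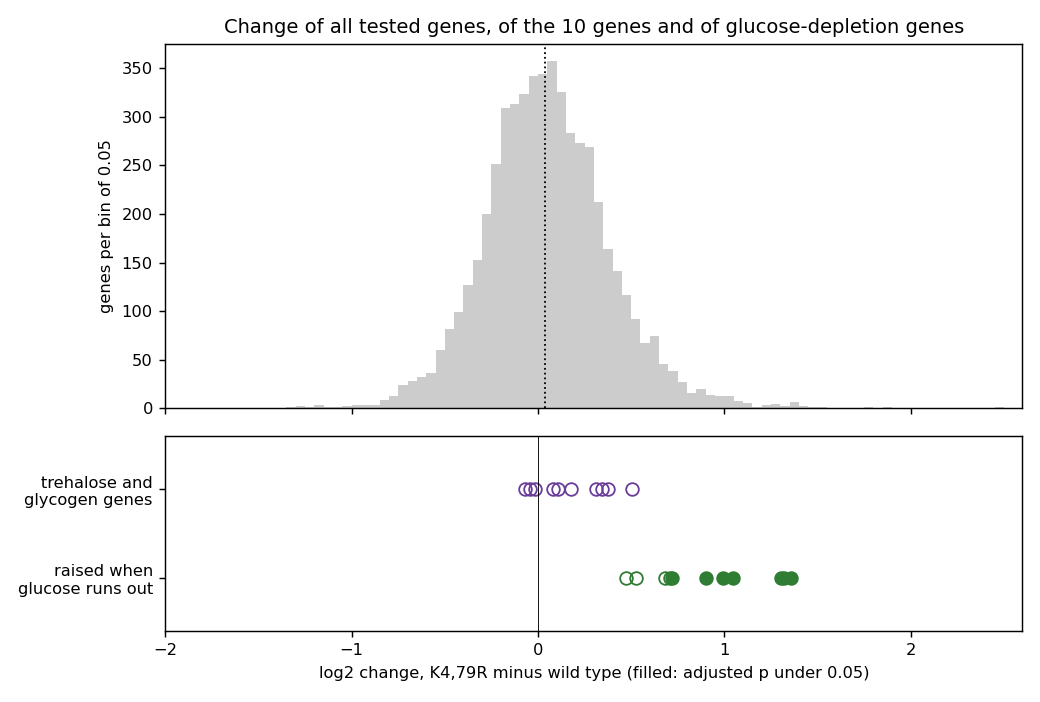
Top, histogram of log2 changes, K4,79R minus wild type, of the 5380 tested genes, with the median dotted; bottom, the 10 trehalose and glycogen genes (purple) and 11 genes raised when glucose runs out (green), filled where the adjusted p is under 0.05. The 10 genes lie between -0.07 and 0.51, all open, and the green points between 0.47 and 1.36.

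Mating-type markers were checked for the identity of the cells. The a-cell genes MFA1, MFA2, STE2 and BAR1 summed to 1808 to 2603 on K4,79R arrays, against 2940 to 3953 on wild-type arrays. Most of these sums came from MFA1 and MFA2. In that order the log2 changes of the 4 genes were -0.72, -0.60, -0.32 and -0.09. Only MFA2 had all K4,79R signals below all wild-type signals, beside 12.2% of all genes. None of the 4 was called, beside 4.26% of all genes. The alpha-cell genes summed to 112 to 147 on K4,79R arrays, against 89.6 to 93.6 on wild-type arrays, with none at 0, and MF(ALPHA)2 rose (log2 0.67, limma adjusted p = 0.0442), a call lost in 10 of 15 alternatives. Of 3 haploid-specific genes HO fell by 1.27 (limma adjusted p = 0.0120), a call lost in 5 of 16 alternatives. Without mutant array 1, 1 of the 4 a-cell genes fell and 2 of the 4 alpha-cell genes rose, where 4.83% of all genes fell and 16.0% rose. At a common median as well, 3 of the 4 a-cell genes fell and no alpha-cell gene rose, where 13.6% of all genes fell and 6.71% rose. Their part in the results was not tested.

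The genes most like the 10 were found as those whose log2 values, centred on the wild-type mean, differed least over the 6 arrays from the mean of the 10. The mean of the 10 was -0.01, 0.30 and 0.24 on K4,79R arrays 1, 2 and 3, and 0.06, 0.00 and -0.06 on wild-type arrays 1, 2 and 3. The nearest were MRD1, SAS5, VPS38, RRP42 and COR1, with root mean square differences of 0.03, 0.03, 0.04, 0.05 and 0.05 on the log2 scale, beside a median of 0.26 over the other 5370 genes. MRD1 and RRP42 act in ribosomal RNA processing, SAS5 in a histone acetyltransferase complex, VPS38 in vacuolar sorting and COR1 in the respiratory chain. None of the 5 was called, beside 4.26% of all genes, and their log2 changes lay between 0.16 and 0.21. Changes of about this size follow from choosing genes close to the mean of the 10 over the same arrays.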

How the data were processed

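Total RNA of 3 samples per group was labelled with biotin and read on Affymetrix yeast arrays, per the labels' protocols and the platform annotation. The deposited values are intensity on a linear scale, 1 per probe set and array, made with MAS5 per the submitters' processing notes, with no version given. They were used as the authors deposited them. The 2% trimmed mean was 125 on each wild-type array, against 115, 136 and 138 on K4,79R arrays 1, 2 and 3. The wild-type arrays thus shared a common level and the mutant arrays did not. A difference in scaling between the groups cannot be told apart from genotype in the deposited values. Control probe sets (60 of 9335) and the 20% of the rest with the lowest mean were left out. Of 9275 probe sets, 6504 had 1 gene, 328 several and 2443 none; all 6504 matched the RefSeq table of R64, used for names only. A gene with several probe sets took the brightest. Signals were compared as log2(signal + 3.605) with limma 3.58.1 in R 4.3.3 (lmFit, eBayes with an intensity trend, two-sided, 4 residual degrees of freedom, called at an adjusted p under 0.05), checked on simulated data. The members and lists were chosen with earlier results of these data known. Named genes were the 10 members, called further genes or else the 2 largest changes per list, called growth markers, and the 5 nearest profiles; MSN2, MSN4, NTH2, RAS2, HXT3, HXK2, ICL1, PCK1, JEN1, CTT1 and the mating-type genes were added after their values were seen. 1 further listed pathway gene is not reported here. Probe positions, promoter and protein sequences were not used here, so the planned motif search was not run. Alternatives covered scaling, offset, filter, probe set choice, trend, pairing and leaving out each array.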

Additional observations from a re-analysis of the deposited data

How the results depend on the processing

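As limits, 3 arrays a group and the scaling set what these data can show, and signals near background understate changes. Over all genes 229 were called, against 368 with quantile normalization, 358 with a common median and 350 with a common trimmed mean. The share called higher was 151 of 229 as deposited, 181 of 368, 156 of 358 and 185 of 350. Leaving out an array gave 22 to 1123 calls, and 1094 without mutant array 1 at a common median. For the 10 genes the count called was 0 to 2 (0 with all arrays) and their median change 0.020 to 0.32. For the further pathway genes it was 0 to 10, with 1 when probe sets were averaged (SGA1) and 2 without mutant array 1 at a common median. For the growth markers it was 1 to 10. Changes that turned direction, none of them called, did so within these ranges when 1 array was left out: TPS2 -0.18 to 0.085, TPS3 -0.12 to 0.052, TSL1 -0.067 to 0.17, NTH1 -0.049 to 0.41, GSY2 -0.15 to 0.10, GPH1 -0.17 to 0.35, GLG1 -0.093 to 0.24, MSN4 -0.24 to 0.058, HXK2 -0.035 to 0.12, and NTH2 over NTH1 -0.017 to 0.41. TSL1 was at -0.021 with a common median and at -0.12 without mutant array 1 as well, where HXK1 was at -0.054 and HXK2 at -0.26. GLG1 was at -0.10 with quantile normalization and -0.033 with a common median, and HXK2 at -0.019 with a common trimmed mean and -0.069 with a common median. The cause was not tested. With the replicate block, 24 genes, none of the 10 and 1 growth marker were called. Same-numbered arrays correlated at -0.15, 0.07 and -0.02 in their deviations from the group means. Arrays of unlike numbers ran from -0.27 to 0.27, so these values cannot decide whether the numbers pair the samples.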
